A study of Mus musculus with 4 samples.

Results

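Transcript levels were compared between a teratoma grown from Snai1 knockout mouse embryonic stem cells and a teratoma grown from control stem cells. The comparison took 2 of the 4 arrays in the series, those titled KO.TM and F/F.TM, and every non-control probe set that named 1 gene, which gave 18193 genes of the 18193 that such probe sets name on these arrays. Control cells carry the genotype written F/F in the labels, and knockout cells are given as Snai1 knockout with no further allele, agent or strain. The cells were placed under the skin of the hind limbs of male nude mice aged 6 weeks, and the tumours were collected at week 6 and extracted with Trizol. The other 2 arrays hold control and knockout embryoid bodies, which are aggregates of differentiating stem cells, collected on day 5 and extracted on columns. Whether each RNA came from 1 tumour or from several, and whether each genotype is 1 clone, is not given in the sources used here.

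Snai1 encodes a zinc-finger repressor of the Snail family, which binds E-box sequences and switches off epithelial genes such as E-cadherin when epithelial cells become mesenchymal at gastrulation and in the neural crest. A teratoma is a disorganised tumour in which pluripotent cells differentiate into tissues of all germ layers, such as neural tissue, muscle, gut-like and skin-like epithelium and connective tissue. Nude mice lack a working thymus and so most T cells, but they keep B cells, natural killer cells and myeloid cells. The tumour also takes in host vessels, stroma and blood cells, and because host and graft are both mouse their RNA cannot be told apart on these arrays. In such bulk RNA, fewer cells of a type and less RNA per cell cannot be told apart either.

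All values are log2 expression values as the authors deposited them, and each difference is the knockout teratoma minus the control teratoma. Each array has a floor set at the median over its non-control probe sets, at 5.08 for the control and 5.04 for the knockout, and lower values were set to it. Where 1 array lay below its floor, only a bound can be given, written as at least that many fold, and its direction is set by the floor. Genes below the floor on both arrays have no difference. Genes count as higher or lower here from 2-fold, a log2 difference of 1. With 1 array per genotype there is no spread between replicates, no test was possible and no p-value is given. The closest measure of error was the spread between probe sets of 1 gene on the same arrays, with a pooled SD of 0.29 over 5090 genes, which leaves out any difference between tumours.

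Of the 18193 genes, 12197 were measured, 11525 of them on both arrays, 308 on the control array only and 364 on the knockout array only. In the knockout teratoma 397 genes (3.25% of those measured) reached 2-fold in the upward direction and 131 (1.07%) in the downward one, and 95.7% of measured genes lay within 2-fold. Past 4-fold lay 35 higher and 14 lower genes. Of the 2-fold genes, 47 higher and 13 lower ones rest on a bound, and 9 and 2 carry clone or model names and are not named here. The median over all measured genes was 0.06, with quartiles of -0.16 and 0.31, and 7025 genes lay above 0 and 5150 below it. These counts and the 2-fold shares over all measured genes belong beside every list count below. The difference between 3' and 5' probe sets, which widens as RNA degrades, was larger in the control teratoma, at 0.65 against 0.40 for Gapdh and 1.03 against 0.85 for Actb. Its part in the differences was not tested.

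**Figure D1:**
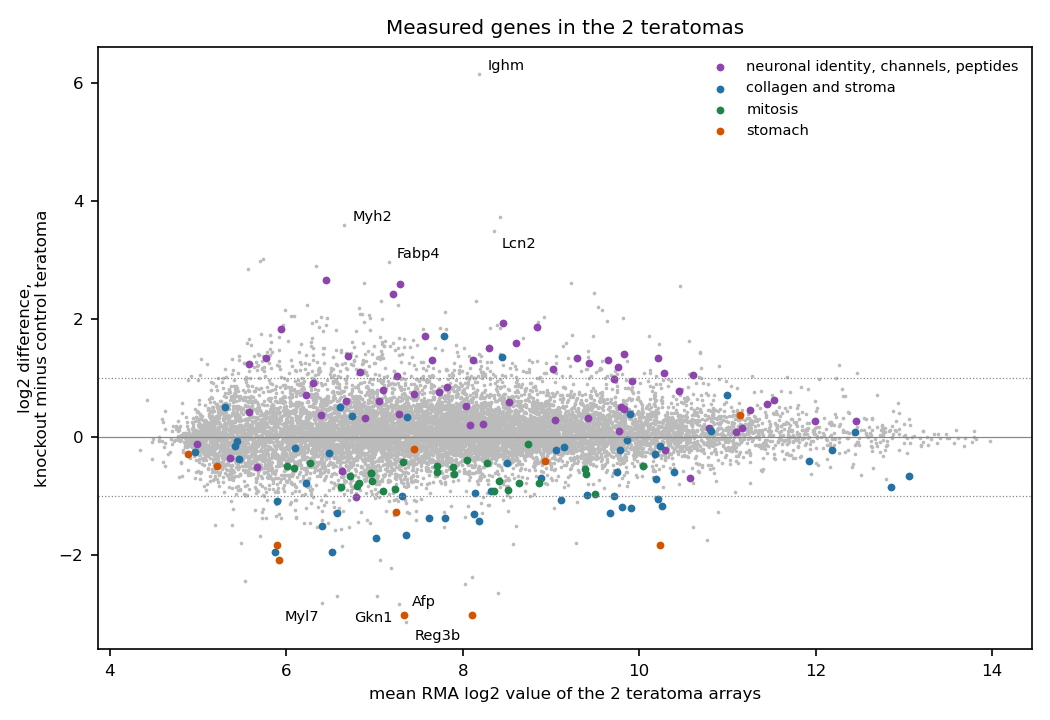
Log2 difference (knockout minus control teratoma, vertical axis) against the mean deposited log2 value of the 2 teratoma arrays (horizontal axis) for the 12197 measured genes, 1 array per genotype, values below the floor set to it before the difference. Dotted lines mark 2-fold, coloured points are members of 4 sets of lists, and 95.7% of genes lie between the dotted lines, with neuronal members mostly above 0 and mitosis and collagen members mostly below it.

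The Snail family was read first. Snai1 lay below the floor in both tumours (control 3.59, knockout 3.44), so these arrays do not check the genotype labels in teratomas, and whether its probe set lies in the deleted part is not given. Snai2, a relative that also represses E-cadherin, read 8.43 in the control and 7.15 in the knockout, a difference of -1.28, while its other measured probe set, above the floor in the control only, differed by at least -0.24. Snai3 lay below the floor on both arrays. Of 12 measured genes of the Snail, Twist and Zeb list, Snai2 alone was past 2-fold, and the mesenchymal factors Prrx1 (-0.73), Zeb2 (-0.38) and Twist1 (-0.33) and the matrix protein gene Fn1 (-0.33) lay below 0 by less. Snai2 was under 2-fold with averaged probe sets and without probe sets of shared sequence. The E-cadherin gene Cdh1, the best known Snai1 target, read 9.52 in the control and 9.08 in the knockout.

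Both tumours carried transcripts of the germ layers that define a teratoma. For ectoderm, the neuronal tubulin gene Tubb3 read 11.09 in the control and 11.24 in the knockout, and the basal epidermal keratin gene Krt15 read 9.88 and 9.54. For mesoderm, the skeletal actin gene Acta1 read 11.33 and 12.09. For endoderm, the stomach mucosal peptide gene Tff1 read 11.15 and 9.32. Cartilage was thinly represented in both, with 9 of 22 genes on the array measured and the cartilage proteoglycan gene Acan below the floor, as were the adult globin gene Hba-a1 and the bone factor gene Sp7. Probe sets that name several genes were not used, so the Hba-a1 reading does not cover globin transcripts read by such probe sets. Another globin gene, Hbb-b2, read 5.21 in the control and 5.46 in the knockout.

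Contractile genes separated by muscle type. The smooth muscle and heart genes past 2-fold were all lower in the knockout tumour, while skeletal muscle genes went both ways, with the embryonic and neonatal myosin genes Myh3 and Myh8 lower and Myh2 and the myoglobin gene Mb higher. Of 14 measured smooth muscle genes (16 on the array), 5 were at least 2-fold lower and 0 higher, with a median of -0.77. Of 21 measured heart genes (29 on the array), 6 were lower and 0 higher, with a median of -0.49 that is -0.26 over the 12 above the floor on both arrays. Of 32 measured skeletal muscle genes (41 on the array), 5 were higher and 6 lower, with a median of 0.42 that was 0.11 with the floor at the 25th percentile or with none.

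Among smooth muscle genes, enteric actin Actg2 read 8.37 in the control and 5.68 in the knockout, which is 6.47-fold lower. The smooth muscle myosin heavy chain gene Myh11 read 8.30 and 6.08, or 4.68-fold lower. Mylk, the kinase that switches on smooth muscle contraction, read 10.19 and 8.38, or 3.50-fold lower. Vascular smooth muscle actin, Acta2, which myofibroblasts also make, differed by -1.53 and the regulatory light chain gene Myl9 by -1.20. Tagln, another actin-binding marker, differed by only -0.56. Synpo2, a Z-disc and smooth muscle protein gene, differed by 0.94 on the probe set used, but its other measured probe set differed by -0.30.

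Among heart genes, cardiac actin Actc1, also made by embryonic skeletal muscle, read 9.72 in the control and 7.07 in the knockout, 6.29-fold lower. The atrial myosin light chain gene Myl7 was above the floor only in the control, at 7.85 against 4.95, and so at least 7.02-fold lower. The cardiac myosin gene Myh6 was at least 3.48-fold lower (6.84 and 4.13) and the cardiac troponin I gene Tnni3 at least 2.12-fold lower (6.13 and 4.62). Cardiac troponin T, Tnnt2, read 7.68 and 6.22, and the heart progenitor and motor neuron factor gene Isl1 read 9.36 and 7.85. The defining markers Nkx2-5, Nppa, Nppb and Myl3 were below the floor in both tumours, so heart muscle as such is thinly covered.

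Promoter stretches of the 2 heart genes with the largest differences are shown because both hold a CArG box, the site to which serum response factor binds at muscle genes. The letters are the 150 bases before the start of each gene from RefSeq (GRCm38.p6), read 5' to 3' on the gene's strand, and capitals mark the match. They lie at chr2:114052876-114053025 on the minus strand for Actc1, with the match beginning 47 bases before the start, and at chr11:5898783-5898932 on the minus strand for Myl7, with the match beginning 61 bases before it.
Actc1: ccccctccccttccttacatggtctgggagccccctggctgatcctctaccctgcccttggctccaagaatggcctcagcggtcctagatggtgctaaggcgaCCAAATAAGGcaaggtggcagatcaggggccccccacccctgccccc
Myl7: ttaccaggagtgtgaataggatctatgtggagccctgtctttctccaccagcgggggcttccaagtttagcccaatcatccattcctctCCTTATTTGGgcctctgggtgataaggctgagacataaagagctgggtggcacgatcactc
The search took the strict form of the box, which reads the same on both strands, in 300 bases around each start (250 before and 50 after). It was found for 4 of 18 measured heart genes in the promoter table, Actc1, Myl7, Hopx and Fhl2, of which Hopx differed by -0.23 and Fhl2 by -0.30. For smooth muscle it was found for 1 of 10, Myl9, and for skeletal muscle for 2 of 25, against 1.81% of the 27025 genes in the table and 1.63% of its 32851 promoters. These matches are descriptions of letters and not evidence of binding.

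The skeletal myosin heavy chains are encoded side by side, and in the RefSeq gene order Myh3, Myh2, Myh1, Myh4 and Myh8 follow each other. Myh2, the type 2A chain of fast oxidative fibres, passed the floor in the knockout alone, at 8.67 against 4.64, and was at least 12.1-fold higher. Its neighbour Myh4, the type 2B chain of fast glycolytic fibres, was above the floor only in the control, at 7.48 against 3.59, and so at least 5.41-fold lower. The embryonic chain gene Myh3 read 8.11 in the control and 6.02 in the knockout, and the neonatal chain gene Myh8 read 8.71 and 7.35. Myh1, the type 2X chain, read 10.93 and 11.68, a difference under 2-fold, and the slow chain gene Myh7 differed by 0.60.

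Myoglobin, Mb, the oxygen store of oxidative muscle, read 7.92 in the control and 10.53 in the knockout, 6.07-fold higher. The fast-fibre calcium pump gene Atp2a1 differed by 1.29, muscle glycogen phosphorylase Pygm by 1.17 and the fast-fibre actinin gene Actn3 by 1.12. Early myogenic genes were on the other side. The differentiation factor gene Myog read 6.63 and 5.26, and the muscle and neural crest progenitor factor gene Pax3 differed by -1.15, although another Pax3 probe set measured on both arrays differed by -0.12. The slow and cardiac troponin gene Tnnc1 differed by -1.25, and Myod1, Myf5, Myf6 and Pax7 were below the floor in both.

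Muscle isoforms also led the list of respiratory chain genes. Of its 25 measured members, 2 were at least 2-fold higher and 0 lower, with a median of 0.18. Over all measured genes 3.25% were higher and 1.07% lower. Mitochondrial muscle creatine kinase, Ckmt2, is in the list but is not a subunit of the chain. It passed the floor in the knockout alone (4.41 and 6.74), at least 3.16-fold higher, and the muscle subunit gene Cox7a1 read 5.80 and 7.05. The muscle subunits Cox8b (0.93) and Cox6a2 (0.52) came next, and the other 21 members lay between -0.02 and 0.42. With the floor at the 65th percentile Myh6, Myog, Pax3, Actn3, Pygm, Ckmt2 and Cox7a1 came under 2-fold, as did Acta2, Myh4, Pax3 and Tnnt2 when a gene's probe sets were averaged. Averaging left Myh6 and that floor left Tnni3 with no value. Acta2, Actg2 and Tnnt2 are read by probe sets with shared sequence alone.

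**Figure D2:**
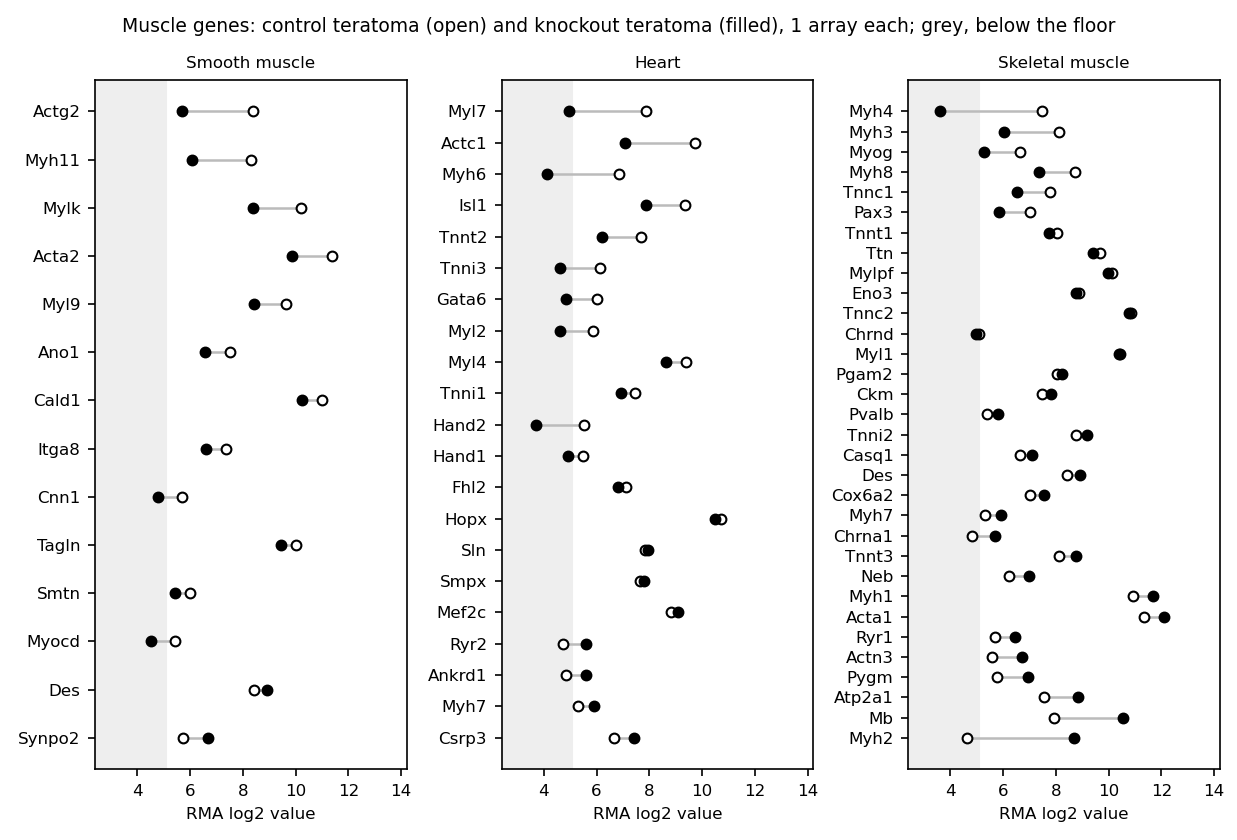
Deposited log2 values of measured smooth muscle, heart and skeletal muscle genes in the control teratoma (open) and knockout teratoma (filled), 1 array each, with the range below the floor in grey. Genes are ordered by their difference, from lower to higher in the knockout, and Myh4 and Myh2 stand at opposite ends of the skeletal muscle panel.

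Collagen and collagen-crosslinking genes past 2-fold were all lower in the knockout tumour. Of 34 measured genes for fibrillar collagens and their crosslinking, 13 were at least 2-fold lower and 0 higher, 29 lay below 0 and the median was -0.75. Collagen XIV, Col14a1, which decorates mature fibrils, read 7.50 in the control and 5.54 in the knockout, 3.88-fold lower, although its other measured probe set, above the floor in the control only, differed by at least -0.49. Collagen VIII, Col8a1, read 8.90 and 7.48, and the crosslinking oxidase genes Loxl1 and Lox read 8.31 against 6.93 and 8.49 against 7.12. The collagen V, VI and I genes Col5a1 (-1.31), Col6a3 (-1.29), Col1a1 (-1.20) and Col5a2 (-1.17) lay close together. Col3a1 and Col1a2, near the top of the arrays' scale, differed by -0.67 and -0.84 on the probe set used and by up to -1.52 and -1.43 on another.

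Among 22 measured fibroblast genes 6 were lower and 2 higher, against 1.07% and 3.25% of all measured genes, with a median of -0.33. The fibroblast activation protease gene Fap was above the floor only in the control (6.99 and 4.75), at least 3.85-fold lower. The dermal matrix gene Dpt read 7.88 and 6.16, the microfibril gene Mfap4 read 8.20 and 6.53, and the stromal progenitor factor gene Tcf21 read 7.16 and 5.64. S100a4 and Thy1 went the other way, at 6.93 against 8.64 and 7.77 against 9.13, and both genes are also made outside fibroblasts, S100a4 by leukocytes and Thy1 by neurons. The platelet-derived growth factor receptor genes Pdgfra (-0.23) and Pdgfrb (-0.17) differed little. Outside the lists, the cartilage matrix gene Cilp (7.56 and 5.71) and the kinase gene Nrk (7.93 and 5.22) were among the largest negative differences. Averaging probe sets brought Bgn, Col14a1, Col18a1, Lox, Loxl1, Thbs2, Nrk and Tcf21 under 2-fold. Leaving out shared-sequence probe sets did so for Col14a1 and left Col6a2 with no value. The 65th percentile floor brought Fap and Tcf21 under 2-fold and turned Thbs2 to 0.0178. Choosing probe sets on the teratomas brought Thbs2 under 2-fold, and centring did so for Bgn.

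Stomach genes had the lowest median of any list with over 7 measured members. Of 11 measured (18 on the array) 6 were at least 2-fold lower and 0 higher, with a median of -1.27, and 4 of the 11 were above the floor in the control only. The gastrokine genes Gkn1, Gkn2 and Gkn3, which follow each other in the RefSeq gene order and encode secreted mucosal proteins, were lower together. Gkn1 read 8.85 in the control and 5.83 in the knockout, and its other measured probe set differed by -2.87. Gkn2 read 9.62 and 6.59, and Gkn3 read 7.14 and 4.71, at least 4.27-fold lower. The pit cell peptide gene Tff1, given above, was 3.55-fold lower, while Tff2, the trefoil peptide of mucous neck cells, differed by -0.41. The gastric aspartic protease genes Ctse (7.88 and 6.61), Cym (11.64 and 9.90) and Pga5 (9.30 and 6.92) and the gastric lipase gene Lipf (6.72 and 4.68, at least 3.21-fold) were lower too. The parietal cell gene Atp4a and the hormone genes Gast and Ghrl were below the floor in both tumours.

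Gut and airway epithelium gave smaller and mixed differences, where over all measured genes 3.25% were higher and 1.07% lower. Of 17 measured intestinal genes 3 were lower, Tspan8 (-1.42), the mucin-folding enzyme gene Agr2 (-1.12) and the keratin gene Krt8 (-1.02). The same list held 1 higher gene, Chga, a secretory granule gene of endocrine cells and neurons, at 8.10 and 9.41, while Cdx1, Cdx2 and Vil1, which define intestine, were below the floor in both. Of 16 measured airway genes 2 were lower and 2 higher. The secretoglobin Scgb3a2 read 9.48 and 7.65 and the mucosal defence gene Bpifb1 read 8.46 and 7.28, whereas the club cell secretoglobin Scgb1a1 read 5.17 and 6.43 and the mucosal receptor gene Gp2 read 5.49 and 6.58. The antimicrobial lectin gene Reg3b read 8.92 and 5.79, and its relative Reg3g differed by -0.02.

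Endodermal secretory genes split as well. Alpha-fetoprotein, Afp, a yolk sac and fetal liver product, read 8.70 in the control and 5.86 in the knockout, 7.14-fold lower. The apolipoprotein genes Apoa1 (7.53 and 6.10) and Apoa4 (7.27 and 6.01) were lower, and albumin, Alb, was at least 1.92-fold lower (5.99 and 4.59). Transthyretin, Ttr, a thyroid hormone carrier of liver, yolk sac and choroid plexus, went the other way at 9.19 and 11.74, and its 4 probe sets differed by 2.15 to 2.71. The other choroid plexus genes did not follow Ttr together, with Folr1 at 0.61, Aqp1 at 0.61, Clic6 at -0.80, Sostdc1 at -1.12 and Kl below the floor in both. Over 21 measured extraembryonic endoderm genes, 4 were lower and 2 higher, against 1.07% and 3.25% of all measured genes, with a median of -0.28.

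Averaging probe sets brought Afp, Agr2, Anxa10, Ctse, Krt8, Tspan8 and Sostdc1 under 2-fold, and the stomach median to -0.49. Without probe sets of shared sequence that median was also -0.49, Gkn2, Anxa10, Krt8, Ttr, Apoa1, Scgb3a2, Scgb1a1 and Gp2 had no value, and Gkn3, Tspan8, Apoa4 and Bpifb1 were under 2-fold, so that none of the 4 airway calls was left. With the 65th percentile floor Gkn3, Lipf, Anxa10, Apoa4, Gp2 and Sostdc1 were under 2-fold and Scgb1a1 had no value, and centring brought Krt8 under it.

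Among the leukocyte lists, 6 B cell and antibody genes, 3 granulocyte genes and 3 macrophage genes were higher in the knockout tumour. No T or natural killer cell gene was, but only 2 of those were measured. Of 18 B cell genes on the array 9 were measured, 6 of them in the knockout only, so that their direction is set by the floor. The 3 above it on both arrays were Ighm and the plasma cell factor genes Xbp1 (0.12) and Prdm1 (-0.44), with a median of 0.12, and 9 were below it in both tumours, Cd79a, Pax5 and Igha among them. The mean level over all 18 was 4.35 in the control and 5.97 in the knockout. Immunoglobulin heavy chain, Ighm, read 5.11 in the control, just above its floor, and 11.25 in the knockout, the largest difference measured on both arrays. A further Ighm probe set gave a bound of 4.32, and the other 9 of its 11 probe sets were below the floor in both. Jchain, which joins antibody units (3.38 and 8.10), the light chain segment gene Igkv8-30 (3.34 and 8.07) and the B cell surface gene Ms4a1 (3.20 and 7.93) were higher by at least 8.11-fold, 7.92-fold and 7.18-fold. The B cell receptor inhibitor gene Cd22 and the plasma cell chaperone gene Mzb1 were at least 2.39-fold and 2.06-fold higher.

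T and natural killer cell genes were hardly covered. Of 13 on the array only Cd4 and Zap70 were measured, at -0.24 and -0.42, and the T cell receptor genes Cd3d, Cd3e, Cd3g and Cd247 were below the floor in both tumours. Of the granulocyte and mast cell genes 5 of 19 were measured, 2 of them in the knockout only, so that their direction is set by the floor. The calprotectin genes S100a8 (4.70 and 7.97) and S100a9 (4.94 and 6.97), which are neighbours in the genome and abundant in neutrophils, were at least 7.43-fold and 3.70-fold higher. Lcn2, an iron-trapping protein of neutrophils and inflamed epithelium, read 6.61 and 10.09, whereas the granule enzyme genes Mpo and Elane, which mark immature neutrophils, were below the floor in both.

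Of 23 measured macrophage genes 3 were higher and 0 lower, against 3.25% and 1.07% of all measured genes, with a median of 0.31. The lysosomal protease gene Ctss read 8.26 in the control and 10.71 in the knockout, 5.44-fold higher, and the lysosomal genes Gpnmb and Cd68 differed by 1.32 and 1.10. The receptor gene Csf1r, which defines the lineage, differed by -0.19, Adgre1 by -0.48 and Ms4a7 by -0.95. The macrophage chemokine genes Ccl8 (9.28 and 6.78) and Ccl6 (7.99 and 6.92) and the gene for the secreted protein Retnla (6.53 and 4.23, at least 2.80-fold), a product of alternatively activated macrophages, were lower. On the probe sets used, all 13 measured antigen presentation genes lay above 0, from 0.20 to 1.04. Only the class II invariant chain gene Cd74 was past 2-fold there (7.70 and 8.74). Other measured probe sets of H2-D1 differed by -0.09 to 1.47, and those of H2-Aa by 0.04 and 1.10. The class I light chain gene B2m read 11.20 and 11.77. Among 14 interferon-stimulated genes the antiviral gene Ifit3 (6.21 and 7.90) and the chemokine gene Cxcl10 (6.01 and 7.06) were higher and 0 were lower, and the pan-leukocyte gene Ptprc read 6.74 and 8.86. Ighm, Igkv8-30, S100a8, Lcn2, Cd74 and Ptprc have no value without probe sets of shared sequence, and Ighm and Cd22 lay below the floor in both tumours when probe sets were averaged, which also brought Ptprc, Gpnmb and Ccl6 under 2-fold. With the 65th percentile floor S100a9, Cd68, Cxcl10 and Retnla were under 2-fold and Cd22 and Mzb1 had no value, and quantile normalization brought Cd74 under it.

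**Figure D3:**
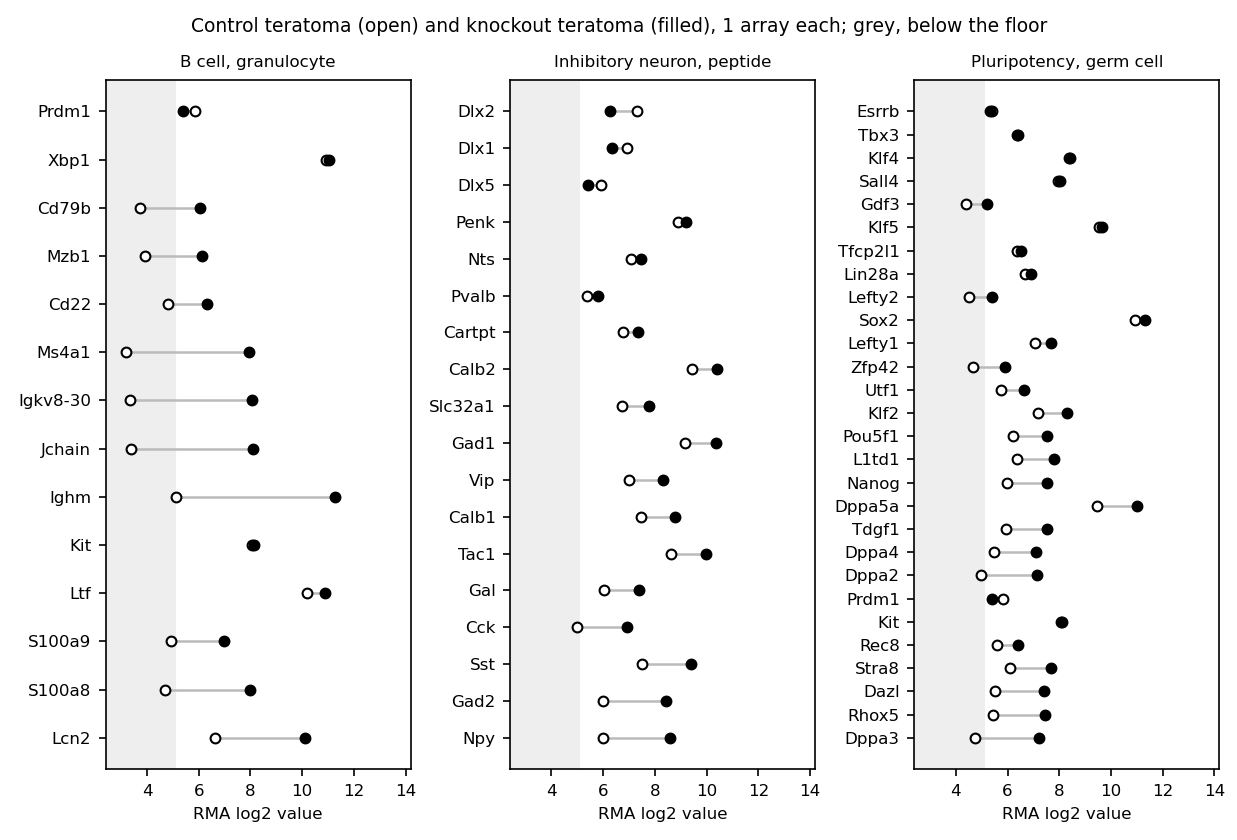
Deposited log2 values in the control teratoma (open) and knockout teratoma (filled), 1 array each, for measured B cell and granulocyte genes, inhibitory neuron and neuropeptide genes, and pluripotency and germ cell genes, with the range below the floor in grey. Most control values of the B cell genes that differ lie in the grey range, whereas most neuropeptide genes lie above it in both tumours.

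The neuronal identity genes past 2-fold were all higher in the knockout tumour. Of 26 measured genes for neuronal cytoskeleton and identity, all of them above the floor on both arrays, 10 were at least 2-fold higher and 0 lower, with a median of 0.59. Those past 2-fold were largely synaptic vesicle genes. The vesicle membrane gene Syp read 7.92 in the control and 9.77 in the knockout, the vesicle phosphoprotein gene Syn1 read 6.72 and 8.43, and the fusion regulator gene Cplx1 read 7.81 and 9.40. The fusion machinery genes Snap25 (1.33) and Vamp2 (1.25), the vesicle protein gene Sv2a (1.15) and the glutamate loader gene Slc17a6 (1.08) were higher as well. The neuronal nuclear protein gene Rbfox3 differed by 1.40 and the heavy neurofilament gene Nefh by 1.34. Of the 26 genes, 24 lay above 0, though Tubb3 (0.15) and Map2 (0.09) differed little. Dcx, the microtubule protein of young neurons, read lower in the knockout, at 10.93 and 10.23.

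Inhibitory transmitter and neuropeptide genes had the largest median of the lists with over 9 measured members, 1.10, with 10 of 18 higher and 1 lower. Neuropeptide Y, Npy, read 5.99 and 8.58, which is 6.04-fold higher, and the GABA synthesis enzyme gene Gad2 read 6.00 and 8.41. Somatostatin, Sst, read 7.49 and 9.41, and cholecystokinin, Cck, passed the floor in the knockout alone (4.97 and 6.91), at least 3.55-fold higher. Gal (1.36), Tac1 (1.34), Vip (1.30), the calcium buffer gene Calb1 (1.30), Gad1 (1.18) and the GABA loader gene Slc32a1 (1.03) completed the higher genes. The homeobox genes that specify forebrain interneurons went the other way, with Dlx2 at 7.30 and 6.27, Dlx1 at -0.58 and Dlx5 at -0.51.

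Channel and receptor genes gave 5 higher and 0 lower of 20 measured, with a median of 0.72. The glycine receptor beta subunit gene Glrb read 5.12 and 7.77, although its other measured probe set differed by 0.65, and the AMPA receptor gene Gria1 read 7.55 and 9.05. The sodium channel genes Scn2a (1.31) and Scn1a (1.10) and the potassium channel gene Kcna1, at least 2.35-fold, were higher. Outside the lists the vesicle gene Vamp1 (5.12 and 7.36), the sodium pump regulator gene Fxyd7 (6.15 and 8.39), the exchange factor gene Rasgrf1 (5.82 and 7.90) and the neuronal metallothionein gene Mt3 (8.43 and 10.63) were among the largest differences. Fam107a, an actin-associated gene of brain, read 6.56 and 10.29 with another probe set at 3.04 and a further one that only reached the floor in the knockout. Tyrosine hydroxylase, Th, the rate-limiting enzyme of dopamine synthesis, read 7.39 and 9.24 and the neurotrophic receptor gene Ret 7.86 and 9.07, while the sympathetic enzyme gene Dbh differed by -0.03.

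Glial genes past 2-fold were likewise all higher. Over all 12197 measured genes 7025 lay above 0, 3.25% were higher and 1.07% lower. Of 18 measured astrocyte genes 6 were at least 2-fold higher and 0 lower, 17 lay above 0 and the median was 0.84. Ntsr2 read 6.90 in the control and 8.73 in the knockout, the gap junction gene Gjb6 read 5.45 and 7.12, the filament gene Gfap read 9.97 and 11.41, and the glutamate transporter gene Slc1a2 read 10.30 and 11.50. Fabp7, which marks radial glia, was the exception at -0.18. Of 14 measured oligodendrocyte genes 3 were higher, the myelin gene Mobp (5.73 and 7.91), the tight junction gene Cldn11 (4.55 and 6.38, at least 2.47-fold) and the progenitor proteoglycan gene Cspg4 (1.03). Myelin basic protein, Mbp, read 11.69 and 12.08, and Mog and Opalin, made late in myelination, were below the floor in both.

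Neural progenitor genes lay on the other side of 0. Of 20 measured, 18 were below 0, 1 was at least 2-fold lower and 0 higher, with a median of -0.39. Over all 12197 measured genes 5150 were below 0, 1.07% were lower and 3.25% higher. The proneural factor gene Neurog2 read 7.20 and 5.75, the Notch ligand gene Dll1 differed by -0.85 and the RNA-binding protein gene Msi1 by -0.68, while Sox2 read 10.95 and 11.33. Motile cilia genes, which ependyma and airway share, centred on a median of -0.42. Of 21 measured, 19 lay below 0, with Lrrc23 at least 2-fold lower (8.65 and 7.47) and the ciliary master regulator gene Foxj1 at -0.25. Averaging probe sets brought Snap25, Syp, Syt1, Slc17a6, Scn1a, Scn2a, Tac1, Slc1a2, Mobp, Cspg4, Vamp1 and Ret under 2-fold and the median of the inhibitory and peptide list to 0.80. Averaging left Calb1, Kcna1 and Slc32a1 with no value, and leaving out shared-sequence probe sets did so for Cck, Syn1, Ntsr2 and Lrrc23. With the 65th percentile floor Cck, Gal, Gjb6, Scn1a, Vamp1, Dlx2 and Neurog2 were under 2-fold and Kcna1, Nefh and Cldn11 had no value. Quantile normalization brought Slc17a6, Slc32a1, Syt1 and Cspg4 under 2-fold, centring did so for Dlx2, and choosing probe sets on the teratomas did so for Glrb.

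The pluripotency and germ cell genes past 2-fold were all higher in the knockout tumour. Of 21 measured pluripotency genes (25 on the array) 8 were at least 2-fold higher and 0 lower, with a median of 0.64. Of the 21, 4 were above the floor in the knockout only, so that their direction is set by the floor. The median over the 17 above it on both arrays was also 0.64. The core factor gene Pou5f1 read 6.22 in the control and 7.52 in the knockout, Nanog read 6.00 and 7.53, and Dppa5a, an RNA-binding protein gene of early embryos, read 9.45 and 11.02. Dppa2 and Dppa4, neighbouring genes that keep developmental genes poised, were higher too. Dppa2 passed the floor in the knockout alone (4.97 and 7.13), at least 4.14-fold higher, and Dppa4 read 5.47 and 7.08. L1td1 differed by 1.46, the Nodal co-receptor gene Tdgf1 by 1.60 and Klf2 by 1.11, while Zfp42, a marker of the naive state, was at least 1.77-fold higher (4.66 and 5.91). Klf4 (0.02), Sall4 (0.09) and Tbx3 (-0.06) differed little. Outside the list, Fbxo15, a target of the core factors, was at least 4.13-fold higher (5.05 and 7.13).

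Of 26 germ cell genes on the array 7 were measured and 4 of them were higher. Dppa3 passed the floor in the knockout alone (4.75 and 7.22), the homeobox gene Rhox5 read 5.46 and 7.46, the germ cell RNA-binding protein gene Dazl read 5.50 and 7.40, and the retinoid-induced meiosis gene Stra8 read 6.08 and 7.66. The germ cell helicase gene Ddx4, which marks committed germ cells, was below the floor in both. Epiblast genes, with 0 of 12 higher and 1 lower against 3.25% and 1.07% of all measured genes, did not follow (median -0.45). There the transcription factor gene Tead2 read 8.05 and 6.99, and Fgf5, the marker of primed epiblast, was below the floor in both. With the floor at the 65th percentile Dppa2, Dppa3, Dppa4, Dazl and Fbxo15 were under 2-fold, and averaging probe sets did the same to Dppa2, which has no value without shared-sequence probe sets.

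Genes of the stress responses lay mostly above 0, and few of them reached 2-fold. Over all 12197 measured genes 7025 lay above 0, 3.25% were higher and 1.07% lower. Of 24 measured hypoxia genes, 21 lay above 0, with a median of 0.33, 3 were at least 2-fold higher and 1 lower. The acid-base enzyme gene Car9 read 5.53 in the control and 6.92 in the knockout, the vasodilator peptide gene Adm read 7.69 and 8.95, and the lipid droplet gene Hilpda read 5.82 and 6.92. Vegfa differed by 0.42 and Lox, counted with the collagens above, by -1.37. Of 18 measured glycolytic genes 17 lay above 0, with a median of 0.37. The 2 past 2-fold were the neuronal enolase gene Eno2 (7.93 and 9.77) and the brain aldolase gene Aldoc (11.17 and 12.18), while the muscle enolase gene Eno3 differed by -0.11. Pdk4, which turns cells from glucose to fat oxidation, read 5.93 and 8.23, and Depp1, a target of FOXO factors, differed by 2.30.

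Promoter stretches of Car9 and Hilpda are shown because both hold ACGTG, the core of the element to which hypoxia-inducible factors bind. They are again the 150 bases before the start from RefSeq (GRCm38.p6), 5' to 3' on the gene's strand, with the core in capitals on either strand. Car9 lies at chr4:43506876-43507025 on the plus strand with the match beginning 18 bases before the start, and Hilpda at chr6:29272476-29272625 on the plus strand with the match beginning 43 bases before it.
Car9: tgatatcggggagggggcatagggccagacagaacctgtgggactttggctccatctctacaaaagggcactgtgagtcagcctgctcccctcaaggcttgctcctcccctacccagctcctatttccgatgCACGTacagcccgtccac
Hilpda: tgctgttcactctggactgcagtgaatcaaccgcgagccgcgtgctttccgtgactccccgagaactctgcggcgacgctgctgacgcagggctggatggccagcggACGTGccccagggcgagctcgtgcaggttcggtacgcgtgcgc
In the 300-base windows ACGTG or its reverse complement was found for 16 of 20 measured hypoxia genes in the table, against 21.8% of genes and 19.6% of promoters. GCGTG, the other common core, was found for 17 of 20 against 35.2% of genes. The 2 cores can overlap the same promoters, and Vegfa, Bnip3 and Slc2a1, which hold both, differed by 0.42, 0.32 and 0.54. Of the 3 higher hypoxia genes, ACGTG was found for Car9 and Hilpda but not for Adm, and GCGTG for Adm and Hilpda. The list was drawn up from genes known for this response, so its shares do not bear on the differences, and the matches are not evidence of binding.

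Of 16 measured heat shock and chaperone genes 4 were at least 2-fold higher and 0 lower, with a median of 0.36. The inducible HSP70 genes Hspa1a (6.35 and 7.88) and Hspa1b (8.03 and 9.18) are neighbours with nearly the same sequence, so their probe sets cannot be read as independent. The other Hspa1b probe sets differed by 1.54 and 1.68. The small heat shock genes Hspb1 (10.17 and 11.18) and Cryab (7.26 and 8.63) were higher, and Hspb7, a heart and muscle member, was at least 1.90-fold higher. The constitutive Hspa8 differed by 0.41 on the probe set used and by -0.25 to 1.23 on its other measured probe sets. Dnaja1 and Hsp90aa1 differed by -0.09 and 0.06.

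The stretches of Hspa1a, Hspa1b and Hspb1 are shown because each holds GAANNTTC, an inverted pair of the units to which heat shock factors bind, in which N is any base. They are the 150 bases before the start, at chr17:34972157-34972306 and chr17:34959239-34959388 on the minus strand and chr5:135887769-135887918 on the plus strand, from the same source, with matches in capitals.
Hspa1a: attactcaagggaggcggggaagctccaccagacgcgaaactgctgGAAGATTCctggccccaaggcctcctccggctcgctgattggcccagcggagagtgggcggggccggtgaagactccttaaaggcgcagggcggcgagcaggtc
Hspa1b: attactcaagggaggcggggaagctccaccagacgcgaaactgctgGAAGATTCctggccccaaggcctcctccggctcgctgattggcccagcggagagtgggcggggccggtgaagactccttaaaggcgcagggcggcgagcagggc
Hspb1: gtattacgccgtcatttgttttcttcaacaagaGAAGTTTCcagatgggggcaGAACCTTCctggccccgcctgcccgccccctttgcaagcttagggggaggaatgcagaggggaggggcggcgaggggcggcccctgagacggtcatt
The match begins 104 bases before the start in Hspa1a and in Hspa1b, whose stretches are identical at 149 of 150 positions, and 117 and 97 bases before it in Hspb1. The motif reads the same on both strands and was found for 9 of 12 measured heat shock genes in the table, against 9.04% of genes and 7.86% of promoters. Among those 9, Dnaja1 and Hspd1 differed by -0.09 and 0.10, so members with the motif lay on either side of 2-fold. This list too was drawn up from genes known for the response, and the matches are not evidence of binding.

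Of 18 unfolded protein response genes 17 lay above 0, with a median of 0.33 and 0 past 2-fold. The stress factor gene Ddit3 came nearest at 7.83 and 8.80. Over all 12197 measured genes 7025 lay above 0, 3.25% were higher and 1.07% lower. Of 20 immediate early genes 3 were higher, Ccn1 (6.92 and 8.19), the survival gene Ier3 (8.18 and 9.27) and the AP-1 gene Fos (10.76 and 11.79), and Fosb and Fosl1 were below the floor in both. The p53 target genes had a median of 0.21 with 0 of 15 past 2-fold. Quantile normalization brought Fos, Ier3, Hspb1 and Aldoc under 2-fold, the 65th percentile floor did so for Car9 and Hilpda, and averaging did so for Ccn1 and Cryab. Without shared-sequence probe sets Ccn1 was under 2-fold and Hilpda, Eno2, Hspb1, Cryab and Ier3 had no value.

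Genes of dividing cells lay mostly below 0 and none of the mitosis and DNA replication genes measured reached 2-fold. Over all 12197 measured genes 5150 lay below 0. All 29 measured mitosis genes lay below 0, between -0.97 and -0.12, with a median of -0.63 against 0.06 over all genes. The proliferation antigen gene Mki67 read 9.98 in the control and 9.01 in the knockout, the spindle genes Racgap1 and Nusap1 differed by -0.92 and -0.90, the kinetochore gene Cenpf by -0.92 and the mitotic kinase gene Cdk1 by -0.77. Genes of DNA replication differed less, with 22 of 27 below 0 and a median of -0.18. Among them the nucleotide reductase gene Rrm2 differed by -0.68 and the helicase gene Mcm4 by 0.05. Ribosomal protein genes had a median of -0.00077 over 15 genes and a range of -0.20 to 0.34.

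Simple epithelium junction genes, the class that Snail factors repress, lay mostly below 0. Of 29 measured, 24 lay below 0, 0 were past 2-fold in either direction and the median was -0.44. The claudin genes Cldn6 and Cldn7 both differed by -0.92, the tight junction gene Marveld3 by -0.88 and the epithelial master regulator gene Grhl2 by -0.74. The adhesion gene Epcam read 9.98 and 9.61, close to the step in Cdh1. The stratified epidermal median was -0.06 and 1 of 21 genes was higher, the crosslinking enzyme gene Tgm1 (4.37 and 6.40, at least 2.50-fold), and 0 lower. The shares over all measured genes were 3.25% higher and 1.07% lower, and 5150 of the 12197 lay below 0. Tgm1 has no value without shared-sequence probe sets or with the 65th percentile floor.

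Vessel genes split within the endothelial list. Of 25 measured, 1 was higher and 3 lower, with a median of -0.12. Over all measured genes 3.25% were higher and 1.07% lower. Esm1, a gene of sprouting tip cells, read 5.58 in the control and 8.19 in the knockout, and the destabilising ligand gene Angpt2, another gene of sprouting vessels, read 6.63 and 7.55. The endothelial SoxF factor genes Sox7 (6.93 and 5.47) and Sox17 (7.11 and 5.69) and the apelin receptor gene Aplnr (-1.08) were lower. Junction genes of the same cells went apart, with Pecam1 at 0.59 and Cdh5 at -0.75. Among fat genes Fabp4, also an endothelial and macrophage gene, read 5.68 and 8.64 and Car3, also a muscle gene, read 9.75 and 11.37, while Adipoq, Lep and Cidec, which define fat cells, were below the floor in both tumours. Fabp4 is read here by 1 of its 4 probe sets, of shared sequence, with the others below the floor in both, and differed by 0.02 when they were averaged. Sox7 and Aplnr were under 2-fold with averaged probe sets, and Sox7 and Sox17 with the 65th percentile floor. Without shared-sequence probe sets Aplnr was under 2-fold and Sox17 and Fabp4 had no value.

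Signalling lists held few genes past 2-fold, where over all measured genes 3.25% were higher and 1.07% lower. In the Wnt list 2 of 13 measured genes were lower, the secreted antagonist gene Dkk1 (6.80 and 5.42) and the feedback inhibitor gene Nkd1 (8.01 and 6.92), with Axin2 at -0.46. In the TGF-beta and BMP list the ligand gene Tgfb3 (6.47 and 5.40) alone was past 2-fold among 22 measured genes, and Bmp4 differed by -0.73. The hedgehog median was -0.53, 8 of 9 genes lay below 0, and values included Gli3 at -0.81 and Shh at 10.87 and 10.34. The Notch median was -0.28, 13 of 16 genes lay below 0, and Jag1 differed by -0.84. FGF and ERK feedback genes had a median of 0.04, with the ETS factor gene Etv5 higher (7.01 and 8.21). Hox genes had a median of -0.07, with 10 of 33 on the array measured and 0 past 2-fold. In the imprinted list 1 of 23 was higher, Usp29 (7.79 and 9.13), and Mest differed by -0.84. Dkk1, Nkd1, Etv5 and Usp29 were under 2-fold with averaged probe sets, and Dkk1 and Tgfb3 with the 65th percentile floor.

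**Figure D4:**
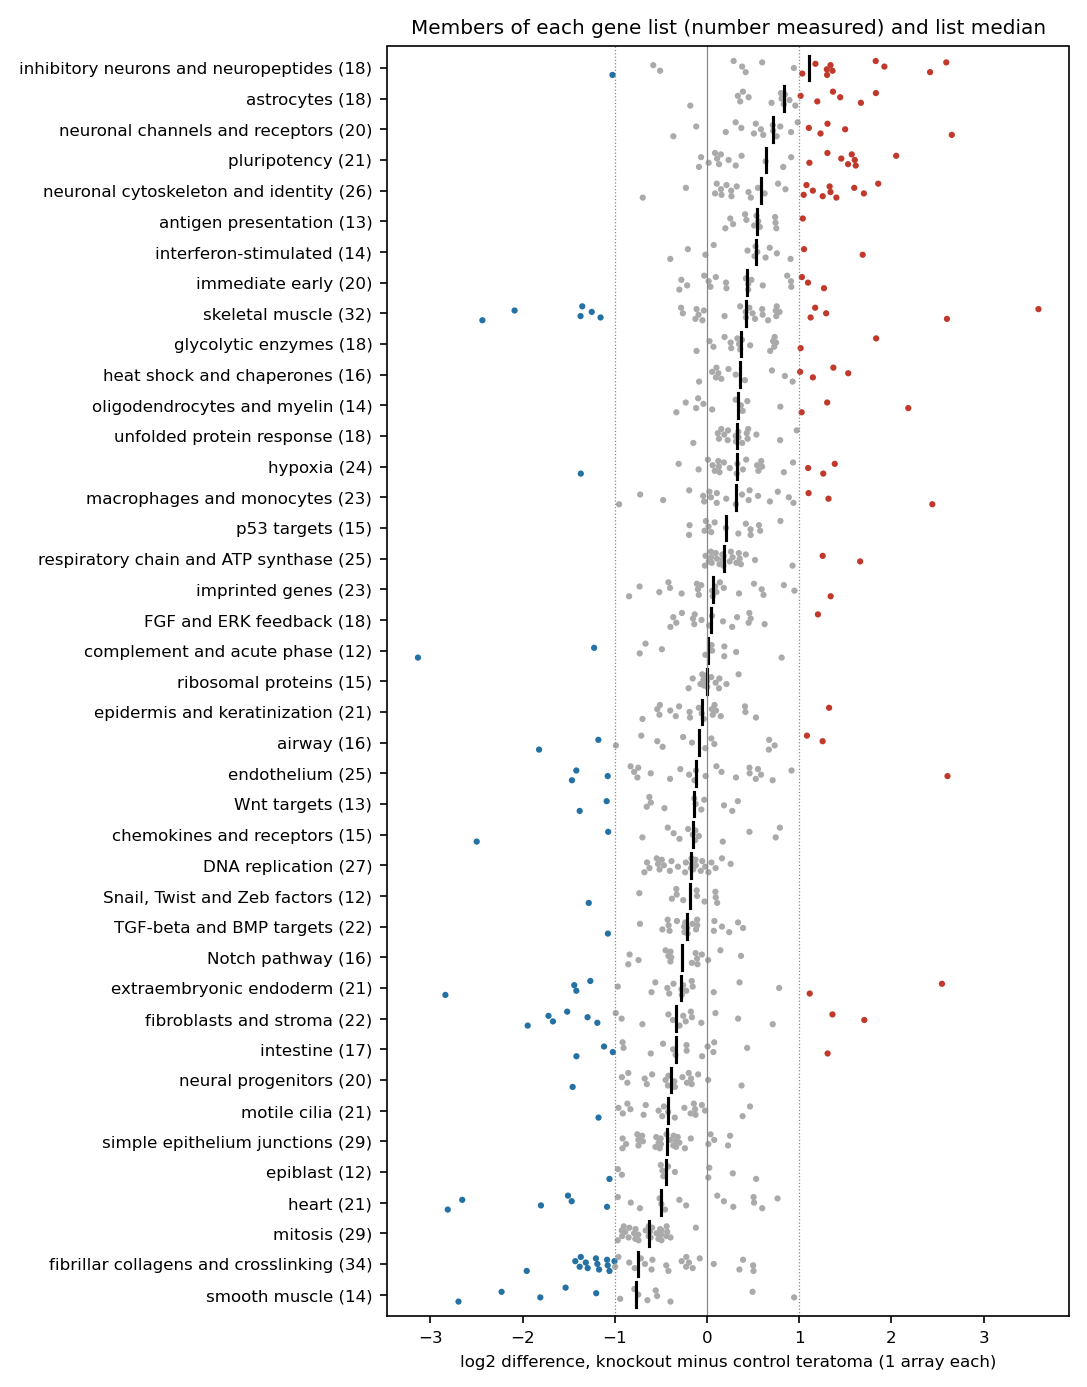
Log2 difference (knockout minus control teratoma) of each measured member of the lists with at least 12 measured members, with the number measured in brackets, 1 array per genotype. Red and blue points are at least 2-fold higher or lower, grey points are not, black bars are list medians, and the lists run from inhibitory neurons and neuropeptides at 1.10 to smooth muscle at -0.77.

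The embryoid body pair, which shares no array with the teratomas, allowed the same genes to be read at day 5. Of 11187 genes measured in both settings, 91 were at least 2-fold lower in the knockout teratoma, and 26 of them (28.6%) were also lower in knockout embryoid bodies, where 3.69% of the 11187 were. Another 5 of the 91 (5.49%) were higher there, against 1.97% of the 11187. Those 26 are 6.30% of the 413 genes lower in embryoid bodies. Of 232 genes higher in the knockout teratoma, 12 (5.17%) were higher and 16 (6.90%) lower there. The 12 are 5.45% of the 220 genes higher in embryoid bodies. Muscle actins and matrix genes are among those lower in both settings. Actc1 differed by -2.34 in embryoid bodies and -2.65 in teratomas, Acta2 by -2.34 and -1.53, Actg2 by at least -2.08 and -2.69, Loxl1 by -3.07 and -1.38, Afp by -4.64 and -2.84, and the splicing factor gene Mbnl3 by -2.43 and -1.59. The teratoma calls of Acta2, Afp, Loxl1 and Mbnl3 were under 2-fold with averaged probe sets, as was that of Mbnl3 with the 65th percentile floor.

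List medians were set side by side, each over the members measured in that setting, so the members behind the 2 medians can differ. Neural progenitors, for example, had 14 measured in embryoid bodies and 20 in teratomas. Collagen genes had a median of -1.11 in embryoid bodies and -0.75 in teratomas, and fibroblast genes -1.23 and -0.33. Simple epithelium junction genes had 0.77 and -0.44, neural progenitor genes 0.68 and -0.39, and epiblast genes 0.44 and -0.45. Erythrocyte and platelet genes had -3.68 in embryoid bodies, where 13 of 15 measured were lower, and 0.29 in teratomas, where 0 of 8 were past 2-fold. Endothelial genes had -0.80 and -0.12, and Hox genes -1.13 and -0.07. Mitosis genes had 0.05 and -0.63. Whether these differences between settings exceed the spread between samples was not tested, since each group has 1 array.

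**Figure D5:**
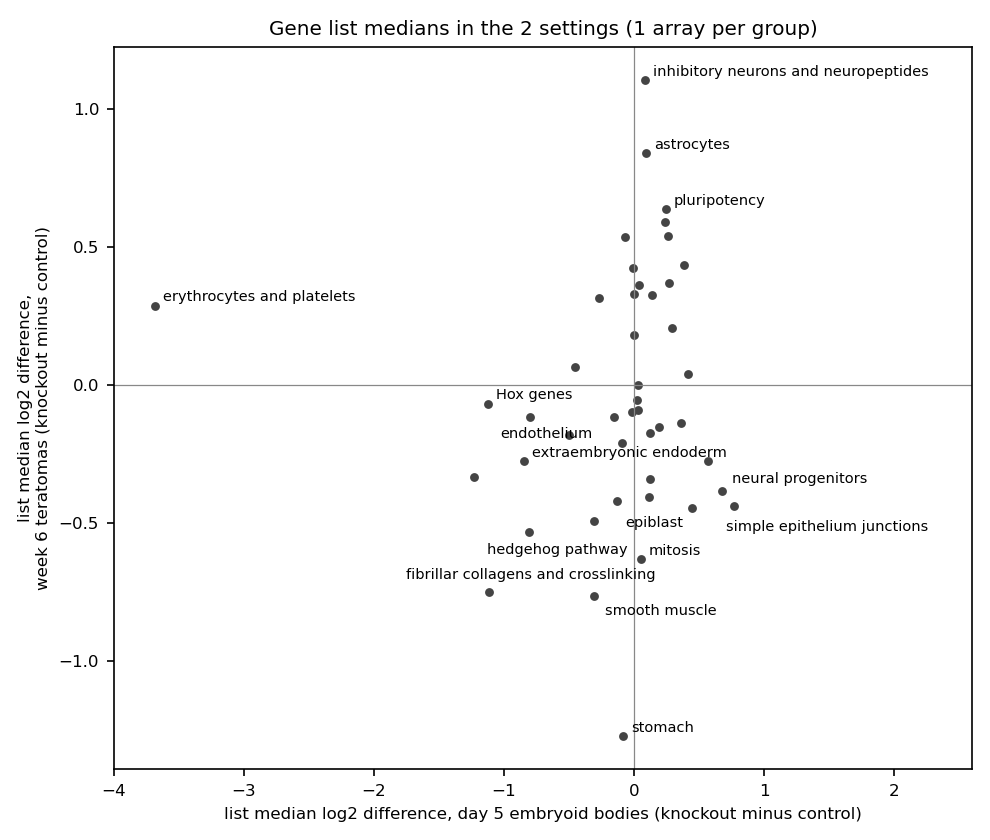
Median log2 difference (knockout minus control) of each list with at least 8 measured members in both settings, in day 5 embryoid bodies (horizontal axis) and week 6 teratomas (vertical axis), 1 array per group. Each median is over the members measured in that setting, which can differ between the axes. Collagens lie below 0 on both axes, simple epithelium junctions and neural progenitors lie above 0 in embryoid bodies and below it in teratomas, and erythrocytes and platelets stand apart at -3.68 on the horizontal axis.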

How the data were processed

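RNA of 4 samples was hybridised to Affymetrix mouse expression arrays of 45101 probe sets, 1 array per group. The authors deposited log2 expression values, and the submitters' processing notes name affy and RMA, which corrects background, normalizes quantiles and summarises probes. Whether the arrays were normalized together is not given in the sources used here. Quantile methods can shrink a shift shared by most genes.

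From the deposited log2 values, 64 control probe sets were left out. Probe sets were named through the platform annotation, of which 34945 named 1 gene, 932 several and 9160 none. Of the 34945, 34741 matched the RefSeq table (GRCm38.p6) and 0 symbols changed. Each gene was read by whichever of its 1-gene probe sets averaged highest over the 4 arrays, values below the array's median were set to it, and the knockout minus control difference was taken in the teratomas. Probe sets whose names mark sequence shared between transcripts were kept and are called shared sequence. Arrays give no read depth, and the number of arrays limits the precision.

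The 60 gene lists (1337 entries, 7 updated through synonyms, 103 unmatched and not analysed here) and the comparison itself were chosen with earlier results of these data known, so list counts are descriptions. Named genes were the Snail family, the 20 largest differences in each direction on both arrays, the 10 largest bounds in each direction, list members past 2-fold, up to 6 largest and the first 4 of each list, and up to 8 genes past 2-fold in both settings in the same and in opposite directions. Other list members named for contrast were chosen after their values were seen. Alternatives were averaged probe sets, probe sets chosen on the teratomas, no shared-sequence probe sets, median centring, quantile normalization, other floors and other fold thresholds. The scripts were tested on simulated data and used Python 3.11.15, pandas 2.3.3, numpy 2.4.6 and matplotlib 3.10.9.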

Additional observations from a re-analysis of the deposited data

Results flagged for a closer look

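Of the genes past 2-fold in both settings, 8 are given here because the knockout differed from the control in opposite directions in teratomas and in embryoid bodies, with 1 array per group, and none of these differences was tested. Transthyretin, Ttr, differed by 2.55 in teratomas and by -1.72 in embryoid bodies. Ctla2a, a cathepsin inhibitor gene, differed by 2.03 and -2.40. Acp5, the phosphatase gene of osteoclasts and macrophages, differed by 1.60 and -2.42, both of them bounds. The small heat shock gene Cryab differed by 1.37 and -1.98, and Ndrg2, a gene of astrocytes, by 1.42 and -1.29. In the other direction, the stomach protease gene Pga5 differed by -2.38 and 1.32, the progenitor factor gene Isl1 by -1.51 and 1.57, and the Wnt antagonist gene Dkk1 by -1.38 and 1.47. In teratomas Acp5 and Dkk1 were under 2-fold with the 65th percentile floor, and Cryab and Dkk1 with averaged probe sets. Without shared-sequence probe sets Acp5, Ctla2a, Cryab and Ttr had no value. Outside the genes described above, 57 of 2492 measured probe sets that name no gene (2.29%) were at least 2-fold higher in the knockout teratoma and 58 were lower. Of 556 measured probe sets that name several genes, 21 (3.78%) were higher and 5 lower.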

How the results depend on the processing

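The 397 genes higher in the knockout teratoma became 262 with the floor at the 65th percentile, 1256 at 1.5-fold and 83 at 3-fold. The 131 lower genes became 86 with averaged probe sets, 76 with that floor, 616 at 1.5-fold and 27 at 3-fold. Under the other alternatives run both counts stayed within 1.5 times. Of the named genes, Naalad2 and Thbs2 changed sign, to 0.0314 and 0.0178, with the 65th percentile floor, where the knockout value is replaced by a floor near the control value. Of 181 named genes past 2-fold, 128 stayed past it in the same direction with averaged probe sets, 139 without shared-sequence probe sets (where 34 had no value), 172 after quantile normalization, 178 after centring, 179 with probe sets chosen on the teratomas, 128 with the 65th percentile floor and 181 with the 25th percentile or no floor. Centring moved the median of all genes from 0.06 to 0.10 and quantile normalization moved it to -0.02. The higher share of 2-fold genes ran from 66.8% after quantile normalization to 78.7% after centring. Median signs turned under some alternative for small or near-zero lists, such as ribosomal proteins and adipose. No paired analysis was possible because each group has 1 array. Genes near background have only bounds, and 1 array per genotype leaves the spread between tumours unknown.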
